A study of Mus musculus with 6 samples.

Results

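Trim28 and 9 other genes of heterochromatin silencing were followed in mouse embryonic stem (ES) cells, pluripotent cells of the early embryo kept in culture. The 10 genes are Trim28, Setdb1, Cbx1, Cbx3, Cbx5, Atrx, Daxx, Suv39h1, Ehmt1 and Ehmt2. They were chosen by name, with earlier results of these data known. All 10 were found among 23420 gene rows and passed the filter on low counts that left 14340 genes. The cells carried a stably integrated lentivirus for the mutant KBP(KK/RR), which the labels call stable (3 libraries, replicates 4, 5 and 6), or for wild-type KBP (3 libraries, replicates 1, 2 and 3). KBP is the KIF1-binding protein. Both groups carried a virus and were grown under self-renewal, and cells without a virus were not analysed here. The labels do not say whether the 3 libraries of a group came from separate transductions or cultures, so p-values measure the spread between these libraries. The comparison asks how transcript levels in cells given the mutant differ from those in cells given the wild-type protein.

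This machinery keeps transposable elements, imprinted regions and germline genes silent in ES cells. KRAB zinc finger proteins bind DNA by sequence and bring TRIM28, which in turn brings the histone methyltransferase SETDB1. SETDB1, SUV39H1 and the pair GLP and G9a (genes Ehmt1 and Ehmt2) methylate lysine 9 of histone H3 (H3K9), the HP1 proteins (genes Cbx1, Cbx3 and Cbx5) bind that mark, and ATRX with DAXX deposits the histone variant H3.3 in heterochromatin.

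The libraries held 24131743 to 32160411 counts. The gene of KBP, listed as 2510003E04Rik, rose to 56.6 ± 2.88 CPM (read counts scaled to the same library total) in KBP(KK/RR) cells, against 48.3 ± 1.30 CPM in wild-type KBP cells (SD, n = 3 each, log2 fold change 0.23, edgeR adjusted p = 0.0133). It no longer passed without KBP(KK/RR) replicate 5 (adjusted p = 0.0735 in edgeR) or wild-type KBP replicate 2 (0.0908), and cellular and viral transcripts cannot be told apart in a count per gene. The ES cell genes Pou5f1, Nanog and Sox2 measured 1435, 334 and 400 CPM in KBP(KK/RR) cells and 1451, 313 and 386 CPM in wild-type KBP cells. The sum of all 8 ES cell genes listed ran from 5157 to 5424 CPM in KBP(KK/RR) libraries and from 5301 to 5449 CPM in wild-type KBP libraries. Of these 8, 0 passed in edgeR, with 3 positive and 5 negative log2 fold changes. Esrrb and Klf4 had -0.09 and -0.09 (edgeR adjusted p 0.182 and 0.208), with all KBP(KK/RR) libraries below all wild-type KBP libraries. Nanog had 0.10 (edgeR adjusted p = 0.191), with all KBP(KK/RR) libraries above all wild-type KBP libraries. In 3 of the 8 the groups did not overlap, beside 22.4% of all tested genes. Of markers of other cells, the sum of 8 fibroblast or feeder genes ran from 19.8 to 21.0 CPM in KBP(KK/RR) libraries and from 19.5 to 22.3 CPM in wild-type KBP libraries. Of these, Col1a1 averaged 8.22 ± 0.534 CPM in KBP(KK/RR) cells and 9.34 ± 0.897 CPM in wild-type KBP cells. Thy1 averaged 4.69 CPM in KBP(KK/RR) and 4.64 CPM in wild-type KBP cells, and Acta2 4.67 CPM in KBP(KK/RR) and 4.41 CPM in wild-type KBP cells. Lum, the lowest of the 8, was at 0 in 5 of 6 libraries. The sum of 6 primitive endoderm genes ran from 14.4 to 17.4 CPM in KBP(KK/RR) and from 16.4 to 19.2 CPM in wild-type KBP libraries. For 5 trophectoderm genes the sums were 9.64 to 12.4 CPM in KBP(KK/RR) and 9.35 to 11.6 CPM in wild-type KBP libraries, and for 5 neural genes 159 to 168 CPM in KBP(KK/RR) and 156 to 161 CPM in wild-type KBP libraries, of which the tubulin gene Tubb3 gave 80.4 to 89.8 CPM in KBP(KK/RR) and 79.9 to 87.1 CPM in wild-type KBP libraries. The part of other cell types in the values below was not tested, and in bulk RNA fewer cells of a type and less RNA per cell cannot be told apart.

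Over the whole table, 448 of 14340 tested genes passed the threshold (edgeR quasi-likelihood test, Benjamini-Hochberg adjusted p under 0.05), or 3.12%. Among the 10 silencing genes 0 passed. An unadjusted p under 0.05 was reached by 1 of the 10, Cbx3, and by 18.6% of all tested genes. DESeq2 and limma-voom also called 0 of the 10. Their median log2 fold change (KBP(KK/RR) over wild-type KBP) was -0.01, beside 0.00 (-0.0022) over all tested genes, with 5 positive and 5 negative values from -0.22 for Atrx to 0.13 for Cbx3. In 2 of the 10, Setdb1 and Ehmt2, the groups did not overlap, beside 22.4% of all tested genes. The count of non-overlapping genes was near the background.

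**Figure D1:**
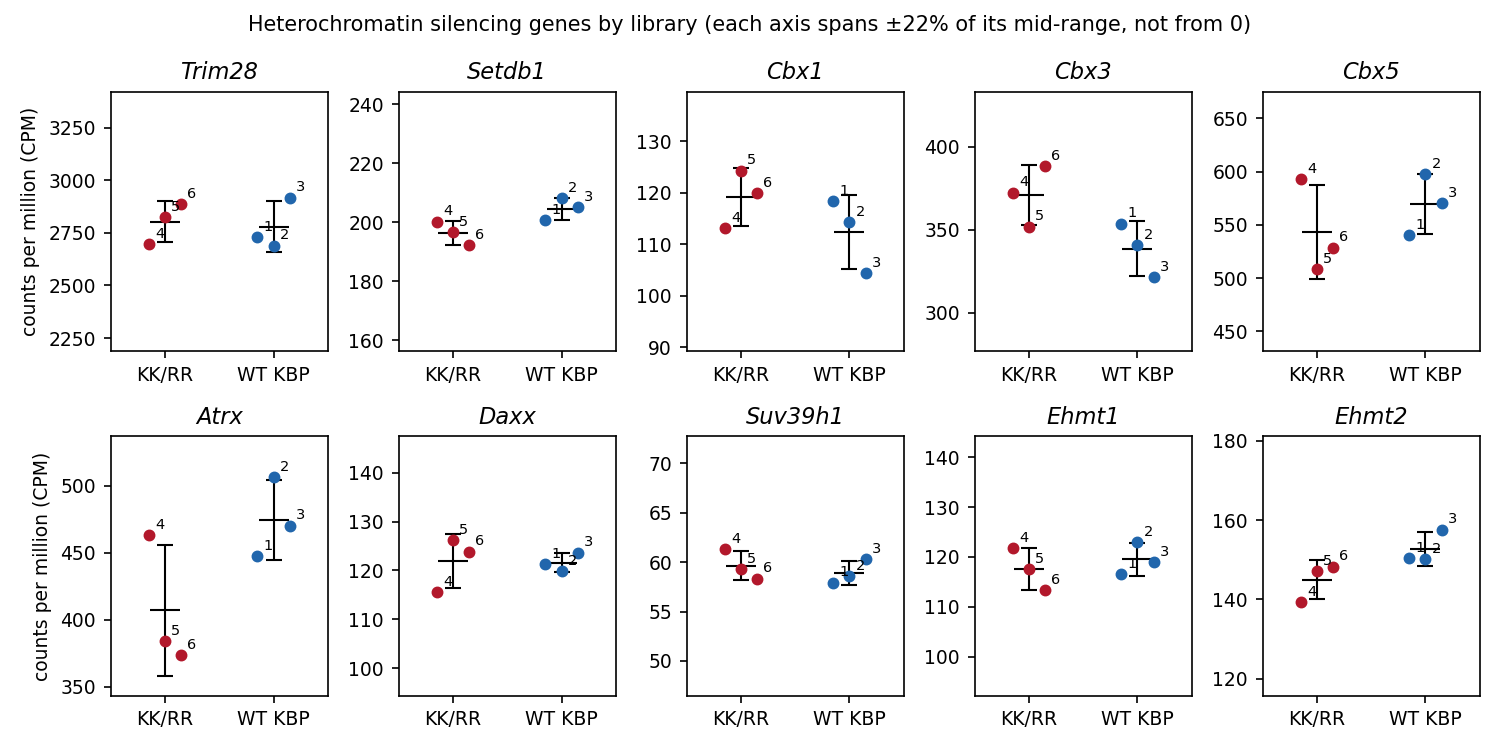
CPM of each silencing gene in every library, with replicate numbers, KBP(KK/RR) left (red) and wild-type KBP right (blue), and bars for mean ± SD of 3 libraries. Each vertical axis spans the same relative range and does not start at 0. The KBP(KK/RR) libraries of Atrx lie apart, at 463 CPM for replicate 4 and at 384 and 374 CPM for replicates 5 and 6.

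The 10 genes differed far more among themselves than between groups. On a scale per length (CPM per 1000 bases of the longest annotated transcript), Trim28 stood at 864 in KBP(KK/RR) cells and 856 in wild-type KBP cells, above 99.7% of tested genes. It made up 66.6% of the summed per-length level of the 10 in KBP(KK/RR) cells and 66.4% in wild-type KBP cells. Cbx3 came next at 127 in KBP(KK/RR) cells and 116 in wild-type KBP cells, and then Cbx5 at 61.7 in KBP(KK/RR) and 64.7 in wild-type KBP cells. The ranges over 6 libraries did not overlap between Trim28 and Cbx3, Cbx3 and Cbx5, Cbx5 and Cbx1, or Setdb1 and Ehmt1. Neighbours from Cbx1 down through Daxx, Atrx, Ehmt2 and Setdb1 overlapped, at 50.1, 45.6, 39.6, 36.0 and 34.8 in KBP(KK/RR) cells, and at 47.3, 45.5, 46.2, 37.9 and 36.2 in wild-type KBP cells. Ehmt1 (19.7 in KBP(KK/RR) and 20.1 in wild-type KBP cells) and Suv39h1 (19.1 in KBP(KK/RR) and 18.9 in wild-type KBP cells) were lowest and overlapped with each other. With the union of all annotated exons as the length, chosen after seeing the data, Trim28 stayed first and Suv39h1 last, while Cbx5 came before Cbx3 and Setdb1 moved to place 5 from place 8.

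**Figure D2:**
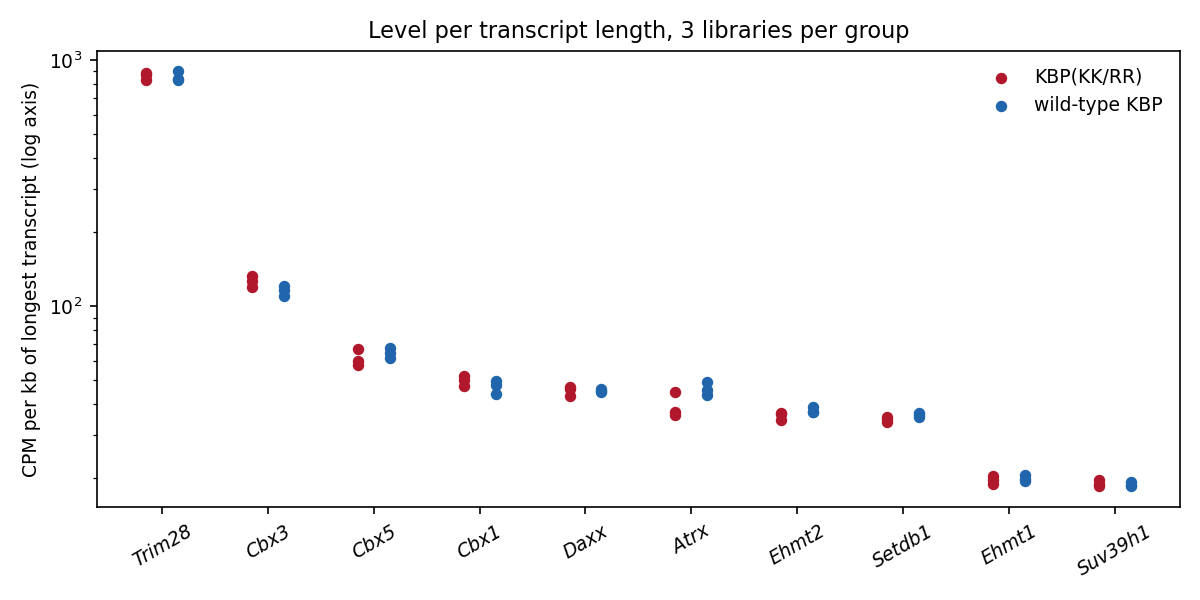
Level per transcript length (CPM per 1000 bases of the longest transcript, log axis) of each gene, with 1 point per library, KBP(KK/RR) in red and wild-type KBP in blue. Trim28 lies at 829 to 899 and the other genes between 18.6 and 133.

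All 10 genes matched the RefSeq promoter table (GRCm38.p6, 250 bases before to 50 after a start), with 16 entries, of which the 3 of Daxx overlap. They held from 8 CG dinucleotides, at a second Cbx5 start, to 40, at a second Ehmt2 start, where all 32851 entries had a median of 7 and an upper quartile of 20. Below that quartile were Atrx (11), Setdb1 (15), 1 entry of Suv39h1 (15) and the second Cbx5 start. The sequences of Trim28, the gene with the highest level, and of Atrx, the gene with the largest difference and the fewest CG at its only listed start, are shown 5′ to 3′ with each CG in capitals. That of Trim28 (chr7:13023902-13024201, plus strand) holds 23 CG, and that of Atrx (chrX:105929323-105929622, minus strand) holds 11. The Atrx window also holds the letters CCAAT, searched on both strands, 4 times. Of all entries 1.06% hold at least 4 and 37.4% at least 1. The Trim28 window holds none. These matches are descriptions and not sites.
Trim28: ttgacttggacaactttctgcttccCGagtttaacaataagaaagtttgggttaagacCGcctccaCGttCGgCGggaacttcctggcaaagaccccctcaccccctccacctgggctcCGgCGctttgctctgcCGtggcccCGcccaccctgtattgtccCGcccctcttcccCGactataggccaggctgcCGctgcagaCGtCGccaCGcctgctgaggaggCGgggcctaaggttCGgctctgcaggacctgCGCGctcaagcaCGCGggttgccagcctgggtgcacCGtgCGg
Atrx: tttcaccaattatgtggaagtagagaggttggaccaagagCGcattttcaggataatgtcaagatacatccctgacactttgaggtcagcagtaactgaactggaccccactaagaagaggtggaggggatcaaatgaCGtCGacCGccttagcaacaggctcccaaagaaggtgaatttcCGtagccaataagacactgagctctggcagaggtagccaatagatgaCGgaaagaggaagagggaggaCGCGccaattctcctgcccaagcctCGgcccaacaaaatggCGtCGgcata

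Trim28, the corepressor that KRAB zinc finger proteins bring to DNA (chromosome 7, 13024152 to 13031032 on GRCm38.p6), measured 2698, 2825 and 2888 CPM in KBP(KK/RR) replicates 4, 5 and 6, and 2731, 2689 and 2917 CPM in wild-type KBP replicates 1, 2 and 3. The groups overlapped throughout. Its log2 fold change was 0.01 (SE 0.04, 95% interval -0.07 to 0.09, edgeR adjusted p = 0.892), so the interval of the fold ran from 0.955 to 1.07. The sign turned without KBP(KK/RR) replicate 6 (-0.0093) and without wild-type KBP replicate 1 or 2, and after correction for transcript length and GC the value was 0.07 (edgeR adjusted p = 0.208). By root-mean-square difference in centred log2 CPM over the 6 libraries, the genes most like Trim28 were L3mbtl2 (0.00935), Ppp4c (0.0104) and Rbm15b (0.0110), where the median of 5979 genes was 0.0721.

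The DNA-binding and family partners of TRIM28 were compared as 2 lists. Of 8 KRAB zinc finger genes, 0 passed in edgeR, DESeq2 or limma-voom (1 had an unadjusted p under 0.05, beside 18.6% of all tested genes), and the median log2 fold change was 0.02. Zfp57, which guards imprinted regions, averaged 618 ± 21.9 CPM in KBP(KK/RR) cells and 703 ± 72.4 CPM in wild-type KBP cells, a log2 fold change of -0.19 (SE 0.07, edgeR adjusted p = 0.206). It passed without wild-type KBP replicate 3 (-0.27, adjusted p = 4.53e-04 in edgeR) and with no filter on low counts (-0.19, 2.58e-04). Zfp568 had a log2 fold change of -0.10 (edgeR adjusted p = 0.305) and passed without KBP(KK/RR) replicate 4 (-0.17, 0.0149), and was -0.04 (0.541) after correction for transcript length and GC. Zfp932 had a log2 fold change of 0.08 (edgeR adjusted p = 0.481) and Zfp961 of -0.03 (0.781). Among the 3 TRIM relatives, Trim66 was the 1 that passed, against 1.05% of all tested genes called higher. Its counts were 33, 12 and 19 in KBP(KK/RR) replicates 4, 5 and 6, and 7, 10 and 8 in wild-type KBP replicates 1, 2 and 3. The groups did not overlap, but the level was low, at 0.746 ± 0.323 CPM in KBP(KK/RR) cells and 0.304 ± 0.0334 CPM in wild-type KBP cells (log2 fold change 1.31, SE 0.36, edgeR adjusted p = 0.0462). DESeq2 gave it no adjusted p and limma-voom did not call it (0.0826). Leaving out KBP(KK/RR) replicate 4 (edgeR adjusted p = 0.197) or 6 (0.109) or wild-type KBP replicate 1 (0.0958), 2 (0.138) or 3 (0.0863) ended the edgeR call. Trim24 (257 ± 4.86 CPM in KBP(KK/RR) and 267 ± 3.33 CPM in wild-type KBP cells) and Trim33 had log2 fold changes of -0.05 and -0.05, with edgeR adjusted p of 0.478 and 0.622. The sign for Trim33 turned positive after a correction for transcript length and GC (0.04).

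Setdb1, the H3K9 methyltransferase that TRIM28 brings (chromosome 3, 95323525 to 95357202), measured 200.2, 197 and 192 CPM in KBP(KK/RR) replicates 4, 5 and 6, and 201, 208 and 205 CPM in wild-type KBP replicates 1, 2 and 3. All KBP(KK/RR) libraries lay below all wild-type KBP libraries, by a narrow gap between replicate 4 and replicate 1. The log2 fold change was -0.06 (SE 0.04, 95% interval -0.14 to 0.02, edgeR adjusted p = 0.432), and -0.03 (0.679) after correction for transcript length and GC. Exons of Cers2 and Gm37500 on the other strand share 1.09% and 3.63% of its exon bases, and the strand setting of the counting is not given in the sources used here. Of 6 genes of SETDB1 cofactors and the HUSH silencing complex, 0 passed in edgeR, DESeq2 or limma-voom (3 had an unadjusted p under 0.05, beside 18.6% of all tested genes), with a median log2 fold change of -0.03. D14Abb1e, now Tasor, a core HUSH subunit, had a log2 fold change of -0.11 (edgeR adjusted p = 0.243), and passed without KBP(KK/RR) replicate 4 (-0.17, 0.0242), and was -0.06 (0.356) after correction for transcript length and GC. Mphosph8, the HUSH subunit that reads H3K9 methylation, had 0.10 (0.247), Atf7ip, the SETDB1 cofactor, -0.10 (0.259) and Morc2a, a HUSH-associated ATPase, -0.06 (0.469).

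None of the other H3K9 methyltransferase genes, Suv39h1, Ehmt1 and Ehmt2, passed the edgeR test. Suv39h1, which acts at pericentric heterochromatin (chromosome X, 8061171 to 8074760), measured 61.3, 59.3 and 58.3 CPM in KBP(KK/RR) replicates 4, 5 and 6, and 57.9, 58.5 and 60.3 CPM in wild-type KBP replicates 1, 2 and 3. The groups overlapped, with a log2 fold change of 0.02 (SE 0.05, 95% interval -0.08 to 0.11, edgeR adjusted p = 0.871). Exons of the antisense gene Gm14820 share 14.6% of its exon bases. Whether reads of both were told apart is not known, because the strand setting of the counting is not given.

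Ehmt1, the gene of GLP (chromosome 2, 24790769 to 24919643), measured 122, 117 and 113 CPM in KBP(KK/RR) replicates 4, 5 and 6, and 117, 123 and 119 CPM in wild-type KBP replicates 1, 2 and 3 (log2 fold change -0.02, SE 0.04, 95% interval -0.11 to 0.06, edgeR adjusted p = 0.801). Ehmt2, the gene of G9a (chromosome 17, 34898463 to 34914073), measured 139, 147 and 148 CPM in KBP(KK/RR) replicates 4, 5 and 6, and 150.3, 150.1 and 158 CPM in wild-type KBP replicates 1, 2 and 3. Its KBP(KK/RR) libraries lay below the wild-type KBP libraries, without passing the test (log2 fold change -0.08, SE 0.04, 95% interval -0.16 to 0.01, edgeR adjusted p = 0.346). After correction for transcript length and GC it was -0.0047 (edgeR adjusted p = 0.957). Per length, Ehmt2 over Ehmt1 was 1.69, 1.85 and 1.93 in KBP(KK/RR) replicates 4, 5 and 6, and 1.91, 1.80 and 1.96 in wild-type KBP replicates 1, 2 and 3, so the ratio overlapped between groups. Of 6 partner genes of SUV39H1 and G9a, 0 passed in edgeR, DESeq2 or limma-voom, and 0 had an unadjusted p under 0.05 in edgeR. The corepressor gene Cdyl had the smallest p (log2 fold change 0.07, edgeR adjusted p = 0.410), followed by Wiz, a zinc finger partner of GLP and G9a (-0.07, 0.485), and Suv420h1, an H4 lysine methyltransferase gene (-0.07, 0.550). Its relative Suv420h2 had -0.02 (0.888). After correction for transcript length and GC, the signs of Wiz (0.03) and Suv420h2 (0.03) were positive.

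The HP1 genes gave the largest positive difference of the 10. Cbx3, the gene of HP1 gamma (chromosome 6, 51470154 to 51483704), measured 372, 352 and 388 CPM in KBP(KK/RR) replicates 4, 5 and 6, and 354, 341 and 321 CPM in wild-type KBP replicates 1, 2 and 3. The groups met at KBP(KK/RR) replicate 5 and wild-type KBP replicate 1, which lay 1 rank out of order. The log2 fold change was 0.13 (SE 0.04, 95% interval 0.04 to 0.22, edgeR adjusted p = 0.104), ahead of the other 9 but not past the threshold. It passed only with no filter on low counts (0.13, edgeR adjusted p = 0.0354), over 14 alternatives with adjusted p up to 0.421. After correction for transcript length and GC it was 0.09 (edgeR adjusted p = 0.125). The annotation lists 8 pseudogenes named after Cbx3, of which 0 have a count row of their own. How reads shared with them were counted is not stated in the sources used here, so the value of Cbx3 is uncertain. Pseudogenes were not searched for the other genes, so this limit may not be particular to Cbx3.

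Cbx1, the gene of HP1 beta (chromosome 11, 96788680 to 96808982), measured 113, 124 and 119.9 CPM in KBP(KK/RR) replicates 4, 5 and 6, and 118, 114 and 104 CPM in wild-type KBP replicates 1, 2 and 3 (log2 fold change 0.08, SE 0.05, 95% interval -0.02 to 0.18, edgeR adjusted p = 0.378), and its value was 0.04 (0.605) after correction for transcript length and GC. Cbx5, the gene of HP1 alpha (chromosome 15, 103191546 to 103239904), measured 593, 509 and 529 CPM in KBP(KK/RR) replicates 4, 5 and 6, and 541, 597 and 571 CPM in wild-type KBP replicates 1, 2 and 3 (log2 fold change -0.07, SE 0.05, 95% interval -0.18 to 0.05, edgeR adjusted p = 0.532). Both overlapped between groups, and Cbx5 split the KBP(KK/RR) libraries, with replicate 4 close to the highest of the 6. Of the summed per-length level of the 3 HP1 genes, Cbx3 held 53.1 ± 1.28% in KBP(KK/RR) cells and 50.8 ± 1.10% in wild-type KBP cells. Cbx1 held 21.0 ± 1.55% in KBP(KK/RR) cells and 20.8 ± 0.673% in wild-type KBP cells, and Cbx5 25.9 ± 1.70% in KBP(KK/RR) cells and 28.4 ± 1.72% in wild-type KBP cells (SD, n = 3 each, no test). Every Cbx3 share in KBP(KK/RR) libraries (52.2% to 54.6%) was above every share in wild-type KBP libraries (50.1% to 52.1%), by a gap of 52.21% in KBP(KK/RR) replicate 5 against 52.08% in wild-type KBP replicate 1. Among single genes the groups did not overlap in 22.4% of those tested, and the Cbx5 difference, which enters these shares, turned to 0.01 after correction for transcript length and GC.

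Atrx had the largest difference of the 10 and the largest spread. Atrx, an ATP-dependent remodeller gene on chromosome X (105797615 to 105929372), measured 463, 384 and 374 CPM in KBP(KK/RR) replicates 4, 5 and 6, and 447, 507 and 470 CPM in wild-type KBP replicates 1, 2 and 3. KBP(KK/RR) replicates 5 and 6 lay below all wild-type KBP libraries, and replicate 4 lay among them. The log2 fold change was -0.22 (SE 0.10, 95% interval -0.47 to 0.03, edgeR adjusted p = 0.315). The SD within groups was 0.135 on the log2 scale, where the median of 384 genes of like level was 0.0483. That of Cbx5 was 0.0960, of Cbx1 0.0815 and of Cbx3 0.0706, each also above the median of genes of like level (0.0471, 0.0504 and 0.0471), while that of Setdb1 was 0.0279 (median 0.0464). Atrx passed the threshold in 3 of 14 alternatives: with KBP(KK/RR) replicate 4 left out (-0.33, edgeR adjusted p = 2.84e-04), with no filter on low counts (-0.22, 0.00376) and after correction for transcript length and GC (-0.13, 0.0134). In the other 11 alternatives the adjusted p ran up to 0.547 (without wild-type KBP replicate 2), and the direction was the same in all 14.

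Genes with long transcripts varied between libraries alongside Atrx. Atrx has a longest transcript of 10275 bases. Its log2 CPM deviated from its mean over the 6 libraries by 0.08, -0.19 and -0.23 in KBP(KK/RR) replicates 4, 5 and 6, and by 0.03, 0.21 and 0.10 in wild-type KBP replicates 1, 2 and 3. The median deviation of the 811 tested genes with a longest transcript of at least 8000 bases was 0.06, -0.10 and -0.15 in KBP(KK/RR) replicates 4, 5 and 6, and -0.01, 0.12 and 0.09 in wild-type KBP replicates 1, 2 and 3. Both were low in KBP(KK/RR) replicates 5 and 6 and high in wild-type KBP replicates 2 and 3. The median log2 fold change was -0.13 for these 811 genes and 0.03 for the 3063 genes with transcripts under 2000 bases. Of the 811, 3 passed higher and 51 lower, where 1.05% of all tested genes were called higher and 2.07% lower. The longest transcript of Atrx has a GC of 39.5%. The 310 genes of the long class with a GC under 45% had a median of -0.11, with 1 called higher and 6 lower. After correction for transcript length and GC, Cbx5, whose longest transcript has 8803 bases, had a log2 fold change of 0.01 (edgeR adjusted p = 0.929) and Ehmt1 of 0.01 (0.866), both turned in sign. The part of transcript length in the value of Atrx beyond this correction was not tested.

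**Figure D3:**
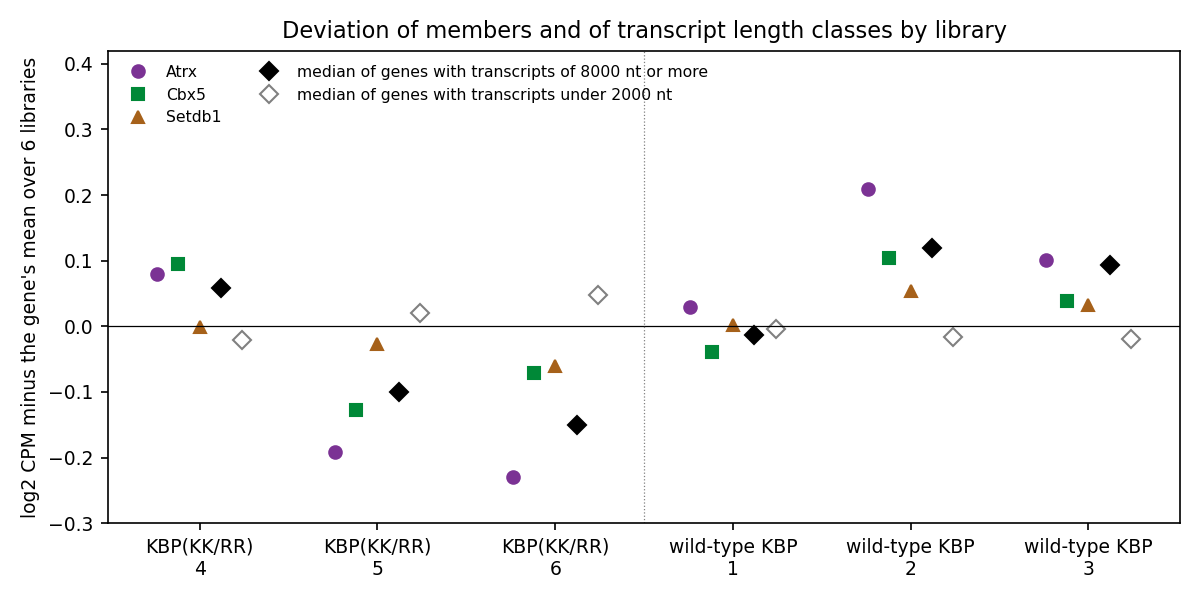
Deviation of log2 CPM from the mean over 6 libraries (vertical axis) by library, KBP(KK/RR) left and wild-type KBP right, for Atrx, Cbx5 and Setdb1 and for the median of genes with long (8000 bases or more) and short (under 2000 bases) longest transcripts. Atrx and the long class are both low in KBP(KK/RR) replicates 5 (-0.19 and -0.10) and 6 (-0.23 and -0.15).

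Daxx, the gene of the H3.3 chaperone that works with ATRX (chromosome 17, 33909404 to 33915590), measured 116, 126 and 124 CPM in KBP(KK/RR) replicates 4, 5 and 6, and 121, 119.8 and 124 CPM in wild-type KBP replicates 1, 2 and 3. The groups overlapped throughout, with a log2 fold change of 0.00 (0.0034, SE 0.04, 95% interval -0.09 to 0.09, edgeR adjusted p = 0.977). Per length, Daxx over Atrx was 0.960, 1.26 and 1.27 in KBP(KK/RR) replicates 4, 5 and 6, and 1.04, 0.909 and 1.01 in wild-type KBP replicates 1, 2 and 3, with replicate 4 again among the wild-type KBP values.

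**Figure D4:**
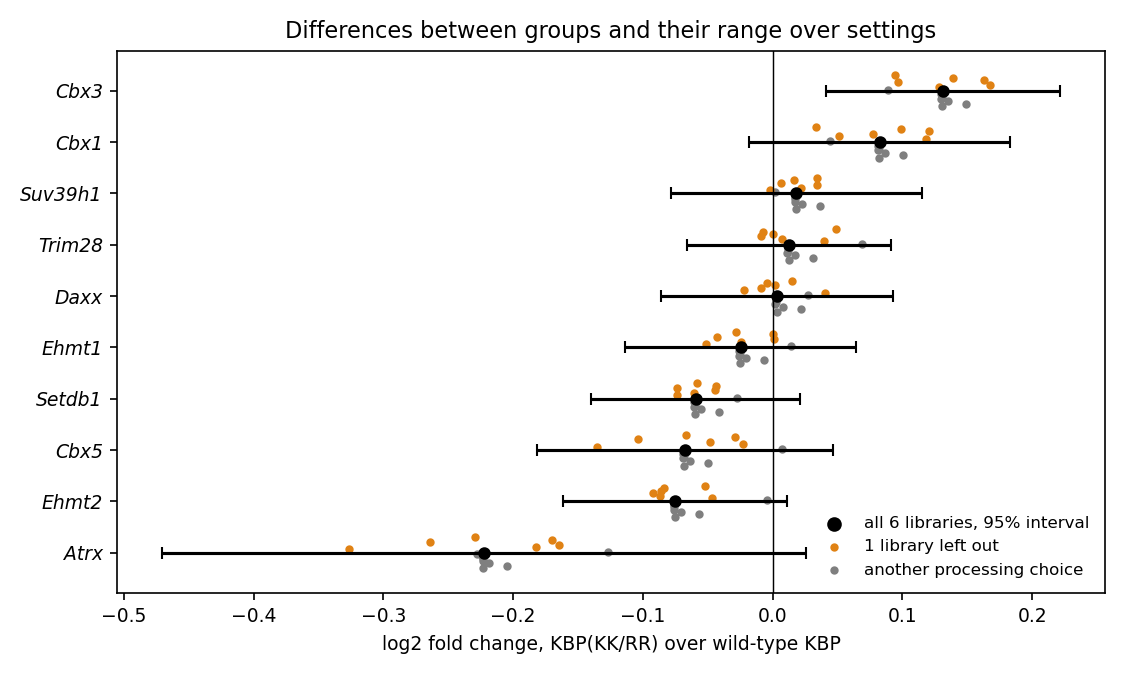
Log2 fold change of each silencing gene (horizontal axis, KBP(KK/RR) over wild-type KBP), as black points with 95% intervals, with the values of 1 library left out (orange) and of other processing choices (grey). The interval of Cbx3, 0.04 to 0.22, lies above 0 before adjustment over all genes, and that of Atrx, -0.47 to 0.03, is the widest.

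Of 11 genes of H3.3 and histone chaperones, 0 passed in edgeR, DESeq2 or limma-voom (4 had an unadjusted p under 0.05, beside 18.6% of all tested genes), with a median log2 fold change of 0.04. The H3.3 genes themselves came closest. H3f3b measured 761, 739 and 767 CPM in KBP(KK/RR) replicates 4, 5 and 6, and 714, 693 and 666 CPM in wild-type KBP replicates 1, 2 and 3 (log2 fold change 0.13, SE 0.04, edgeR adjusted p = 0.0631). H3f3a measured 298, 288 and 305 CPM in KBP(KK/RR) replicates 4, 5 and 6, and 282, 269.7 and 258 CPM in wild-type KBP replicates 1, 2 and 3 (0.14, SE 0.04, edgeR adjusted p = 0.0658). In both, all KBP(KK/RR) libraries lay above all wild-type KBP libraries. Groups did not overlap in 3 of the 11 genes, beside 22.4% of all tested genes. H3f3b and H3f3a passed with upper-quartile scaling (edgeR adjusted p 0.0365 and 0.0390) and with no filter on low counts (0.0272 and 0.0265). H3f3a also passed without wild-type KBP replicate 1 (0.0468). After correction for transcript length and GC, H3f3b had 0.09 (edgeR adjusted p = 0.095) and H3f3a 0.10 (0.0706). Without KBP(KK/RR) replicate 6 the edgeR adjusted p was 0.259 for H3f3b and 0.294 for H3f3a. Cabin1, a subunit of the HIRA chaperone complex, had a log2 fold change of -0.19 (edgeR adjusted p = 0.205) and passed with no filter on low counts (-0.19, 0.00149) and without wild-type KBP replicate 1 (-0.24, 0.0488), and was -0.07 (0.460) after correction for transcript length and GC. Ubn2, another HIRA complex subunit, named after its values were seen, had the lowest value of the list (-0.37, SE 0.19, edgeR adjusted p = 0.412).

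Of 9 NuRD and deacetylase genes, whose products TRIM28 can bring to chromatin, 0 passed in edgeR, DESeq2 or limma-voom, while 6 had an unadjusted p under 0.05, beside 18.6% of all tested genes. The remodeller gene Chd4 averaged 801 ± 60.7 CPM in KBP(KK/RR) cells and 900.5 ± 58.8 CPM in wild-type KBP cells (log2 fold change -0.17, SE 0.06, edgeR adjusted p = 0.158), and passed without KBP(KK/RR) replicate 4 (-0.23, 0.00478), without wild-type KBP replicate 1 (-0.22, 0.0178) and with no filter on low counts (-0.17, 9.57e-04), and was -0.10 (0.172) after correction for transcript length and GC. The histone-binding subunit genes Rbbp4 and Rbbp7 had log2 fold changes of 0.10 and 0.09, and the deacetylase gene Hdac1 of 0.10 (edgeR adjusted p 0.169, 0.237 and 0.170).

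Of 8 tested H3K9 demethylase genes, which remove the mark, 0 passed in edgeR, DESeq2 or limma-voom (3 had an unadjusted p under 0.05, beside 18.6% of all tested genes). Kdm3b measured 173, 164 and 159 CPM in KBP(KK/RR) replicates 4, 5 and 6, and 179, 183 and 189.6 CPM in wild-type KBP replicates 1, 2 and 3. The groups did not overlap, and the log2 fold change of -0.15 (SE 0.04) lay at the threshold, with an edgeR adjusted p of 0.0506. It passed without KBP(KK/RR) replicate 4 (-0.18, 0.0105), with no filter on low counts (-0.15, 0.0146) and with a minimum of 10 counts (-0.15, 0.0488), and was -0.09 (0.1001) after correction for transcript length and GC. Jmjd1c, a Kdm3b relative, had -0.18 (edgeR adjusted p = 0.218) and passed with no filter (-0.18, 0.00146), after correction for transcript length and GC (-0.11, 0.0494) and with KBP(KK/RR) replicate 4 left out (-0.26, 0.00164). Kdm1a, which removes mono- and dimethylation, had 0.08 (0.248) and Kdm3a -0.01 (0.891). Of 10 other heterochromatin factors 0 passed in edgeR, DESeq2 or limma-voom, and 0 had an unadjusted p under 0.05 in edgeR. Lbr, which tethers heterochromatin to the nuclear envelope, had a log2 fold change of -0.07 (edgeR adjusted p = 0.370), the maintenance DNA methyltransferase gene Dnmt1 -0.06 (0.389), and its partner gene Uhrf1 0.00 (0.0034, 0.974). Rif1, a regulator of replication timing, had -0.11 (edgeR adjusted p = 0.579), and passed without KBP(KK/RR) replicate 4 (-0.21, 0.00599), and was -0.05 (0.457) after correction for transcript length and GC.

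**Figure D5:**
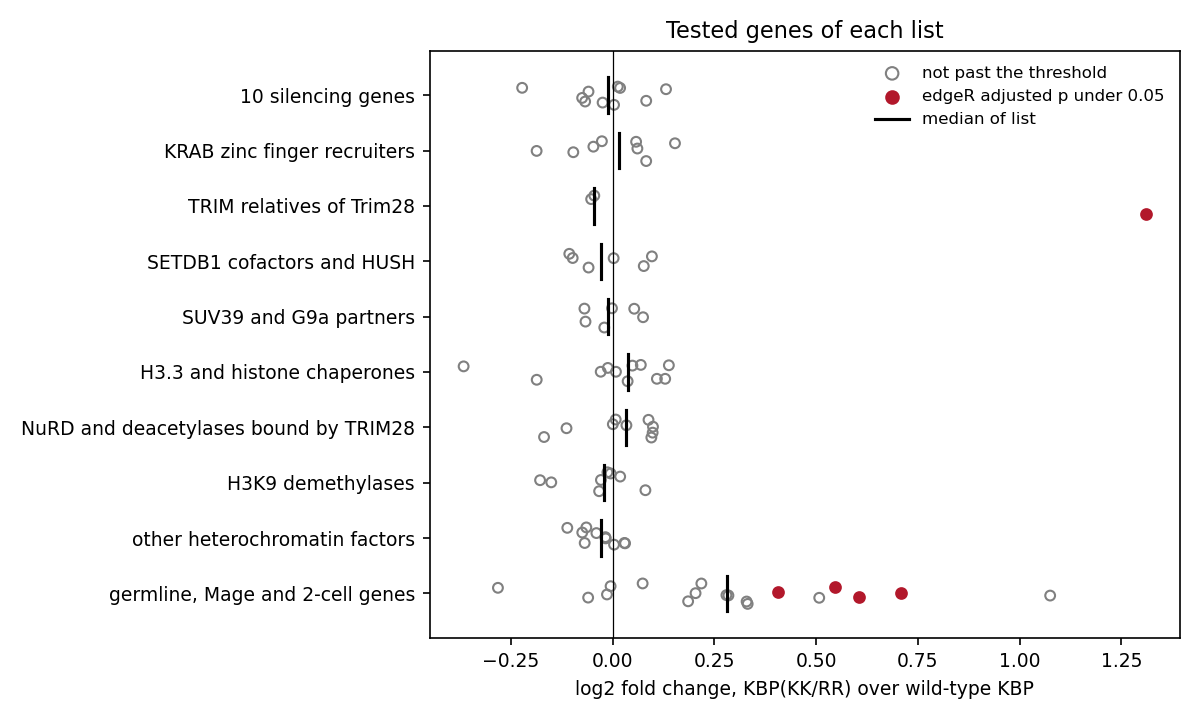
Log2 fold change (horizontal axis, KBP(KK/RR) over wild-type KBP) of the tested genes of each list, with 1 point per gene, red where the edgeR adjusted p was under 0.05, and a bar at each median. The medians of the list of 10 and of the 8 lists of partners lie between -0.05 and 0.04, and that of the germline, Mage and 2-cell genes, which include close Zscan4 copies, at 0.28.

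Genes that this machinery is known to keep silent in mouse ES cells were chosen with earlier results of these libraries known, and their direction is therefore not independent support. Of 26 listed germline, Mage and 2-cell genes, 18 were tested, 4 rose and 0 fell, where 1.05% of all tested genes were called higher and 2.07% lower. Their median log2 fold change was 0.28, and 0.23 after correction for transcript length and GC. Tuba3a, a testis tubulin gene, had 253, 190 and 219 counts in KBP(KK/RR) replicates 4, 5 and 6, and 157, 181 and 150 counts in wild-type KBP replicates 1, 2 and 3 (log2 fold change 0.41, SE 0.10, edgeR adjusted p = 0.0221). Its mean was 7.88 ± 0.575 CPM in KBP(KK/RR) cells and 5.97 ± 0.310 CPM in wild-type KBP cells. The groups did not overlap, though Tuba3a no longer passed without KBP(KK/RR) replicate 4 (0.0573) or 5 (0.0513) or wild-type KBP replicate 2 (0.123). Tuba3b of the same family, with 5 to 17 counts per library, overlapped between groups and did not pass (0.33, edgeR adjusted p = 0.705). How any reads shared by Tuba3a and Tuba3b were counted is not stated in the sources used here. The other genes that rose were Zscan4a, Zscan4c and Zscan4d (log2 fold change 0.71, 0.61 and 0.55, edgeR adjusted p 0.00572, 0.00967 and 0.0342), close copies active in 2-cell embryos whose single values are uncertain. Zscan4f of the same family did not pass (0.51, edgeR adjusted p = 0.109). The Zscan4 calls are therefore not separate genes to set against the share over all tested genes, and the copies also enter the median of the list. Zscan4a was lost without KBP(KK/RR) replicate 6 (0.0563), and Zscan4d without KBP(KK/RR) replicate 6 (0.197) or wild-type KBP replicate 2 (0.169) or 3 (0.0678) and in limma-voom (0.0594). DESeq2 gave none of the 4 genes called in edgeR an adjusted p and called 0 of the list. The number called was 2 without KBP(KK/RR) replicate 6 and 2 without wild-type KBP replicate 2. The Mage genes, which rise in ES cells that lack G9a, stayed at the floor of detection, with at most 6 counts of any of 7 genes in any library and 0 counts in all 6 libraries for Magea1, Magea2 and Magea6. At this depth no difference in them was detectable. Ddx4, a germ cell helicase gene, averaged 22.2 ± 1.47 CPM in KBP(KK/RR) cells and 22.3 ± 0.0538 CPM in wild-type KBP cells (log2 fold change -0.01, edgeR adjusted p = 0.976), with a positive sign under upper-quartile scaling (0.01).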

How the data were processed

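Per the labels' protocols, libraries came from ScriptSeq v2 after RiboZero removed ribosomal RNA. The deposited values used are raw read counts per gene symbol, 1 column per library. The submitters' processing notes name bcl2fastq, TopHat, HTSeq and DESeq2 without versions, and the builds mm10 and GRCm38. No source used here gives the counting annotation, strand setting or filters. The deposited normalized table of the same libraries was not used.

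Counts were fitted over all genes with edgeR 4.0.16 in R 4.3.3 (filterByExpr, TMM factors, robust quasi-likelihood fit, group as the model's term), with Benjamini-Hochberg adjustment over the 14340 tested genes and a threshold of 0.05. SE was taken as |log2 fold change| over the root of F, and 95% intervals use the fit's degrees of freedom. CPM uses TMM-scaled totals, and per-length levels use the longest GENCODE M21 transcript of a symbol (23047 of 23418 distinct symbols had a length). Coordinates are RefSeq's on GRCm38.p6. Replicate pairs differed by more than counting noise (chi-square per degree of freedom 2.60 to 6.79), so none was a duplicate. The procedure was tested on simulated data.

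The members and lists were chosen with earlier results of these data known. The genes named were all members, the KBP gene, Pou5f1, Nanog and Sox2, and per list every called gene, up to 3 with the smallest p and the 2 with the highest per-length level, besides the 3 genes most like Trim28. Single marker genes of cell types, Zscan4f and Tuba3b were named in addition. Alternatives were DESeq2 1.42.0, limma-voom (limma 3.58.1), other scalings and filters, a correction per library for a smooth dependence on transcript length and GC (splines with 5 degrees of freedom), a threshold of 0.1 and each library left out in turn. The union of exons as the length was chosen after seeing the data.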

Additional observations from a re-analysis of the deposited data

How the results depend on the processing

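No paired analysis was possible because the groups share no replicate number (1 to 3 against 4 to 6). Genes past the threshold numbered 448, against 966 with no filter on low counts, 270 in limma-voom, 704 after correction for transcript length and GC, 823 at adjusted p under 0.1, and 122 to 767 with 1 library left out (122 without KBP(KK/RR) replicate 6, 767 without KBP(KK/RR) replicate 4). Upper-quartile scaling gave 235 higher and 205 lower, against 151 and 297. Of the 10 silencing genes, 2 passed with no filter, Atrx (-0.22) and Cbx3 (0.13), 1 after the correction, Atrx (-0.13), and 0 to 1 with a library left out. The sign was the same in all 14 fits for Setdb1, Cbx1, Cbx3, Atrx and Ehmt2, though the correction left Ehmt2 at -0.0047. After the correction, log2 fold changes turned for Cbx5 (0.0074), Ehmt1 (0.014), Suv420h2 (0.034), Trim33 (0.037), Wiz (0.027) and Ppp4c (-0.0046), and under upper-quartile scaling for Ddx4 (0.013), Kdm3a (0.0051) and Pou5f1 (0.0022). With 1 library left out, the values ran from -0.33 to -0.16 for Atrx, 0.09 to 0.17 for Cbx3, -0.0093 to 0.049 for Trim28, -0.022 to 0.040 for Daxx, -0.051 to 0.00085 for Ehmt1, -0.0022 to 0.034 for Suv39h1, -0.052 to 0.040 for Ddx4, -0.033 to 0.0074 for Kdm3a, -0.013 to 0.043 for L3mbtl2, -0.040 to 0.016 for Pou5f1, -0.0033 to 0.067 for Ppp4c, -0.079 to 0.060 for Suv420h2 and -0.011 to 0.013 for Uhrf1. Calls per list moved to 0 in DESeq2 and 2 to 4 with a library left out for the germline list, 2 (upper quartile), 3 (no filter), 2 (adjusted p under 0.1) and 0 to 2 for H3.3 and chaperones, 2 (no filter), 1 (minimum of 10 counts), 1 (correction), 1 (adjusted p under 0.1) and 0 to 2 for demethylases, 1 (no filter) and 0 to 1 for KRAB and for NuRD genes, 0 to 2 for other heterochromatin factors, 0 to 1 for SETDB1 cofactors, and 0 (DESeq2 and limma-voom) and 0 to 1 for TRIM relatives. With the union of exons as the length, chosen after seeing the data, the places were 8 for Atrx, 7 for Cbx1, 3 for Cbx3, 2 for Cbx5, 4 for Daxx, 6 for Ehmt2 and 5 for Setdb1, against 6, 4, 2, 3, 5, 7 and 8. The cause was not tested for these changes. With 3 libraries a group, the data did not resolve where within its 95% interval a difference lay.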
